A study of Mus musculus with 6 samples.

Results

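The genes described here encode enzymes that remove superoxide and peroxides: the superoxide dismutases Sod1, Sod2 and Sod3, the catalase Cat, the glutathione peroxidases Gpx1, Gpx2, Gpx3 and Gpx4, and the peroxiredoxins Prdx1 and Prdx6. Their rows were found by gene name, and all 10 were among the 14968 protein-coding genes of the deposited table. Gene expression was measured by sequencing polyadenylated RNA of regenerating corneal epithelium from male C57BL/6 mice. The diabetic group (3 libraries) came from mice 16 weeks after streptozotocin (STZ), a compound toxic to pancreatic beta cells that leaves the animals short of insulin, injected at a low dose on consecutive days into young adults. The control group (3 libraries) came from mice of the same strain without STZ. The central corneal epithelium of both groups had been scraped, and limbus and healing epithelium were collected on the following day. Several mice were pooled into every library. P-values therefore measure only how these pools vary. The question was which genes differ in epithelium that regenerates under type 1 diabetes.

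Superoxide dismutases convert superoxide into hydrogen peroxide. SOD1 does so in the cytosol with copper and zinc, SOD2 in the mitochondrial matrix with manganese, and SOD3 is secreted and bound to the matrix around cells. Hydrogen peroxide is then removed by catalase in peroxisomes, by glutathione peroxidases at the expense of glutathione, and by peroxiredoxins, most of which are recycled by thioredoxin. GPX4 reduces lipid peroxides within membranes and thereby protects cells from ferroptosis, an iron-dependent form of cell death. The cornea is exposed to light and oxygen and is rich in such enzymes.

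GPX1, GPX2, GPX3 and GPX4 are selenoproteins: selenocysteine, inserted at a TGA codon that otherwise ends translation, is the catalytic residue. The coding bases around that codon are shown because they are the feature these 4 genes share beyond their names. They were read from the GENCODE M21 transcripts (GRCm38), in the longest annotated transcript that carries the codon, 12 bases to each side, 5′ to 3′, with the selenocysteine codon in capitals.
Gpx1: gtcgcgtctctcTGAggcaccacgatc
Gpx2: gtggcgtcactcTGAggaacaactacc
Gpx3: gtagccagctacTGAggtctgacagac
Gpx4: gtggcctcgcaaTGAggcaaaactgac
The codon lies on chromosome 9 at 108339451 to 108339453 in Gpx1, on chromosome 12 at 76795256 to 76795258 in Gpx2, on chromosome 11 at 54907256 to 54907258 in Gpx3 and on chromosome 10 at 80054737 to 80054739 in Gpx4. It is codon 47, 40, 73 and 129 of these transcripts. Over the 27 bases Gpx1 and Gpx2 were the most alike, with 21 identical, and Gpx3 shared 13 with each of those 2.

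No library stood so far apart that it was left out, but the groups also differed in keratins of the epithelium and in genes of other cell types. Values are FPKM, the fragments that map to a gene relative to its transcript length and to all mapped fragments, and they summed to between 308757 and 331926 per library. Without counts the depth behind a value is unknown. Intervals rest on the spread between replicates, with variances shared in part over genes, and not on depth. The keratins Krt12, Krt5 and Krt14 of corneal epithelium had a lowest value of 3064 FPKM in any library (Krt12, control replicate 3). Krt12 averaged 4964 FPKM in diabetic and 3412 FPKM in control libraries, without overlap, although diabetic replicate 1 and control replicate 2 were nearly equal. Krt14 averaged 4002 FPKM in diabetic and 4816 FPKM in control libraries, without overlap, and Krt5 overlapped. Blood vessel markers summed to at most 8.04 FPKM. Erythrocyte markers summed to between 9.90 and 22.3 FPKM in diabetic and between 41.3 and 107 FPKM in control libraries. Lens markers reached 261 FPKM in diabetic replicate 2 and 68.1 FPKM in diabetic replicate 1, against at most 20.4 FPKM in the other libraries. Markers of conjunctiva, the epithelium beyond the limbus, had higher means in diabetic libraries in 6 of 6 measured genes, with sums that overlapped, between 1999 and 2473 FPKM in diabetic and between 1878 and 2206 FPKM in control libraries. Of these, Krt4, Krt19 and Muc4 did not overlap between the groups. The keratin gene Krt4 was at 192, 143 and 300.2 FPKM in diabetic replicates 1, 2 and 3, against 90.7, 140.2 and 117 FPKM in control replicates 1, 2 and 3.

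FPKM is per length, so levels can be compared between genes. Prdx1 was the most abundant member with a mean of 224 FPKM over the 6 libraries, followed by Sod1 with 200.5 FPKM, Gpx4 with 185 FPKM and Gpx1 with 133 FPKM. Prdx1, Sod1 and Gpx4 ranked 209th, 236th and 252nd of 12149 expressed genes. Prdx6 averaged 73.6 FPKM, Sod3 56.2 FPKM, Sod2 22.8 FPKM and Cat 11.8 FPKM. Gpx3, the glutathione peroxidase secreted into plasma, and Gpx2, that of the gut lining, averaged 1.87 and 1.54 FPKM. The library ranges of neighbouring genes overlapped for Prdx1 and Sod1, Sod1 and Gpx4, Gpx4 and Gpx1, Prdx6 and Sod3, and Gpx3 and Gpx2, and did not for the other neighbours in this order.

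Between the groups, Sod3, Cat and Prdx6 were lower and Gpx4 was higher in diabetic epithelium, each with values that did not overlap. Diabetic and control libraries were compared with limma on log2(FPKM + 1), with Benjamini-Hochberg adjustment over 12149 genes and an adjusted p under 0.05 as the threshold. Of the 10 members 0 passed it, where 0.0658% of all genes tested did. At an unadjusted p under 0.05 in limma 1 member was higher and 2 were lower, against 4.61% of all genes higher and 6.91% lower. For 4 members the ranges of both groups were apart (1 higher, 3 lower), against 6.68% of all genes higher and 10.9% lower. The looser thresholds of the study, 1.5-fold with an unadjusted p under 0.05, were met by 1 member, Sod3, against 2.49% of all genes. The median log2 fold change of the members was -0.20, and that of all genes tested was -0.04. In the bulk RNA, fewer cells of a type and less RNA per cell cannot be told apart.

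**Figure D1:**
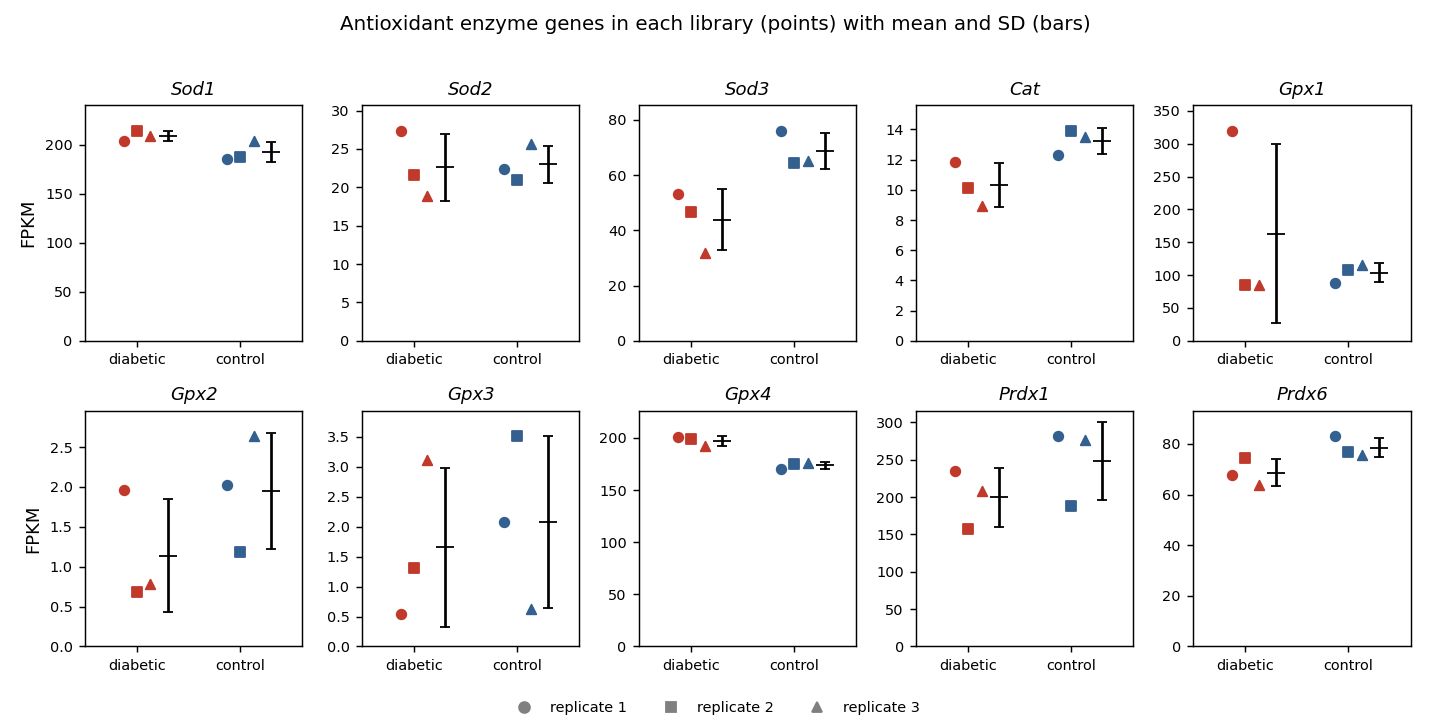
FPKM (y axis, linear from 0) of each of the 10 genes in the 3 diabetic and the 3 control libraries; symbols mark the replicate number, and bars give the mean and SD of the group. Sod3, Cat and Prdx6 lie lower and Gpx4 lies higher in every diabetic library than in any control library, and Gpx1 is at 320 FPKM in diabetic replicate 1 only.

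Sod3 (ENSMUSG00000072941.5, chromosome 5, 52363791 to 52371418, plus strand, on GRCm38 as all positions here), the extracellular dismutase, differed most clearly. It measured 53.2, 46.5 and 31.8 FPKM in diabetic replicates 1, 2 and 3, against 76.0, 64.4 and 65.2 FPKM in control replicates 1, 2 and 3. Every diabetic library was below every control library, and diabetic replicate 3 was the lowest. Sod3 averaged 43.8 ± 10.9 FPKM in diabetic and 68.6 ± 6.48 FPKM in control libraries (SD, n = 3 each), a log2 fold change of -0.66 (95% interval -1.09 to -0.23, SE 0.18, limma unadjusted p = 0.00772, adjusted p = 0.277). The study itself picked Sod3 from these libraries, so its place among the members is not independent of its direction. Without diabetic replicate 3 the log2 fold change was -0.45, under the 1.5-fold threshold, and the adjusted p was 0.397. In an ordinary linear model, which shares no variance over genes, the unadjusted p of Sod3 was 0.0451 (adjusted p = 0.528).

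Genes of the corneal stroma, the connective tissue under the epithelium, lay lower in the same libraries. The 12 stromal markers, none of them at 0, summed to 426, 444 and 325 FPKM in diabetic replicates 1, 2 and 3, against 490.3, 456 and 475 FPKM in control replicates 1, 2 and 3. Of the 12, 9 were lower and 3 higher on average, and the sums did not overlap. Diabetic replicate 3 was the lowest for both Sod3 and the stromal sum. The keratocan gene Kera, a proteoglycan of keratocytes, was at 29.9, 37.8 and 13.7 FPKM in diabetic replicates 1, 2 and 3, against 47.3, 42.4 and 47.8 FPKM in control replicates 1, 2 and 3. Its log2 fold change of -0.85 was the lowest of the 12. Dcn, the most abundant of them, averaged 161 FPKM in diabetic and 172 FPKM in control libraries and overlapped, as did Lum. Ogn, Pdgfrb and Vim were the 3 with higher diabetic means. The part of the stromal genes in the Sod3 difference was not tested.

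**Figure D2:**
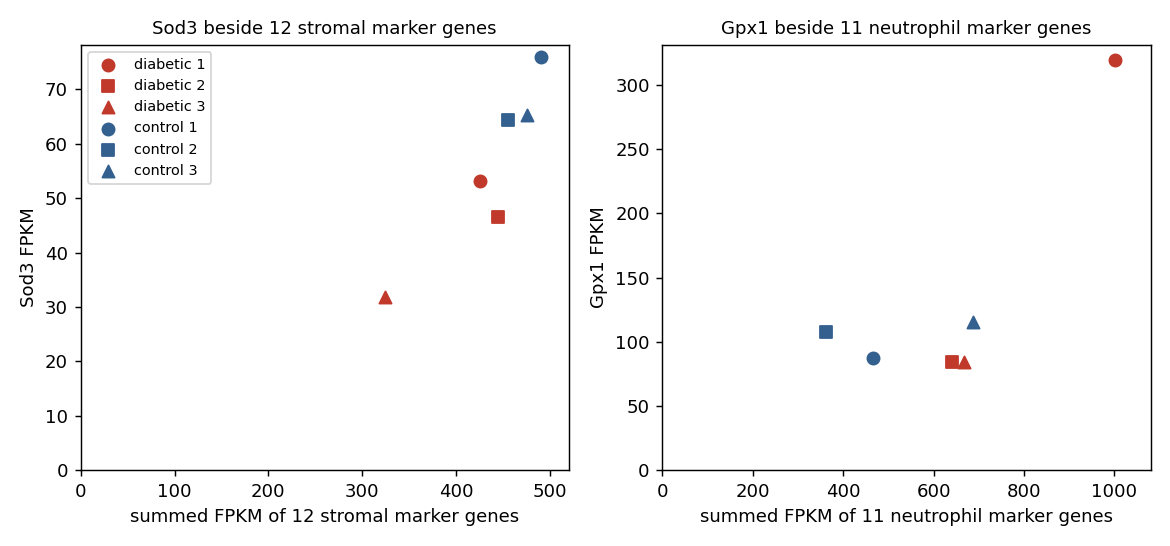
Left, Sod3 FPKM (y axis) beside the summed FPKM of 12 stromal marker genes (x axis) in each library; right, Gpx1 FPKM beside the summed FPKM of 11 neutrophil marker genes; colour marks the group and the symbol the replicate. Diabetic replicate 3 has the lowest Sod3 (31.8 FPKM) and stromal sum (325 FPKM), and diabetic replicate 1 the highest Gpx1 (320 FPKM) and neutrophil sum (1002 FPKM).

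Among the genes whose values over the 6 libraries were most like those of Sod3, out of 6196 others with a mean of at least 5 FPKM, were Hnrnpdl, Gpx8, Gins4 and Chek2. Their Pearson r with Sod3 on log2(FPKM + 1) was between 0.994 and 0.995, given as a description over 6 libraries that differ by group. Of these, Gpx8, a glutathione peroxidase of the endoplasmic reticulum without selenocysteine, belongs to the same enzyme family as 4 of the members. Gpx8 measured 56.0, 51.8 and 41.3 FPKM in diabetic replicates 1, 2 and 3, against 69.4, 63.8 and 66.8 FPKM in control replicates 1, 2 and 3. As for Sod3, no diabetic value reached the control range and diabetic replicate 3 was the lowest. Gpx8 is named here for its likeness to Sod3, so this shared pattern is not a separate result. For Gpx8 the log2 fold change was -0.43 (limma unadjusted p = 0.00983, adjusted p = 0.293).

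Sod1 (ENSMUSG00000022982.9, chromosome 16, 90220742 to 90226322, plus strand), the cytosolic dismutase, was at 203, 214 and 209 FPKM in diabetic replicates 1, 2 and 3, against 185, 187 and 204 FPKM in control replicates 1, 2 and 3. Control replicate 3 lay above diabetic replicate 1, so the groups overlapped. Sod1 had a log2 fold change of 0.12 (95% interval -0.06 to 0.30, limma adjusted p = 0.596). Its span overlaps Scaf4 on the opposite strand, and whether strand was used in quantification is not given in the sources used here. Sod2 (ENSMUSG00000006818.4, chromosome 17, 13007839 to 13018119, plus strand), the mitochondrial dismutase, was at 27.4, 21.5 and 18.9 FPKM in diabetic replicates 1, 2 and 3, against 22.3, 21.0 and 25.7 FPKM in control replicates 1, 2 and 3. The highest and the lowest Sod2 value were both in diabetic libraries. The log2 fold change of Sod2 was -0.03 (95% interval -0.38 to 0.32, limma adjusted p = 0.951), and its sign turned with scaling, with 0.02 after quantile normalization.

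Together the 3 dismutase genes summed to 284, 282 and 260 FPKM in diabetic replicates 1, 2 and 3, against 283, 273 and 295 FPKM in control replicates 1, 2 and 3. The sums overlapped between the groups, whereas the shares of Sod3 and Sod1 in them were apart. Sod3 made up 15.8% ± 3.30 of the summed FPKM in diabetic and 24.2% ± 2.41 in control libraries (SD, n = 3 each). Sod1 made up 76.0% ± 4.43 in diabetic and 67.7% ± 2.13 in control libraries (SD, n = 3 each). The share of Sod2, 8.19% ± 1.28 in diabetic and 8.09% ± 0.537 in control libraries (SD, n = 3 each), overlapped. The ratio of Sod3 to Sod1 was 0.262, 0.217 and 0.152 in diabetic replicates 1, 2 and 3, against 0.411, 0.344 and 0.319 in control replicates 1, 2 and 3. Each of these values is a description without a test of its own. The shares and the ratio depend on each other and on the Sod3 and Sod1 values given above, so they are not separate results.

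Cat (ENSMUSG00000027187.10, chromosome 2, 103453849 to 103485160, minus strand), which encodes the peroxisomal catalase, was at 11.9, 10.1 and 8.93 FPKM in diabetic replicates 1, 2 and 3, against 12.3, 13.9 and 13.5 FPKM in control replicates 1, 2 and 3. The groups did not overlap, although diabetic replicate 1 and control replicate 1 were close. Cat averaged 10.3 ± 1.48 FPKM in diabetic and 13.2 ± 0.844 FPKM in control libraries (SD, n = 3 each), a log2 fold change of -0.34 (95% interval -0.62 to -0.05, limma unadjusted p = 0.0259, adjusted p = 0.362). The unadjusted p of Cat in limma was 0.0543 with a replicate block and between 0.0644 and 0.0843 in 4 of 6 fits that left out 1 library, those without diabetic replicate 2 or 3 or without control replicate 2 or 3. Erythrocytes are also rich in catalase, and the erythrocyte markers were lower in 6 of 7 genes in the same diabetic libraries, with sums that did not overlap. The globin genes Hba-a1, Hba-a2, Hbb-bs and Hbb-bt were each lower without overlap. Hbb-bs averaged 5.99 FPKM in diabetic and 25.8 FPKM in control libraries. Alas2 was higher on average (0.942 FPKM in diabetic and 0.670 FPKM in control libraries), and Slc4a1 was at most 0.0145 FPKM in any library. The part of blood in the Cat values was not tested.

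**Figure D3:**
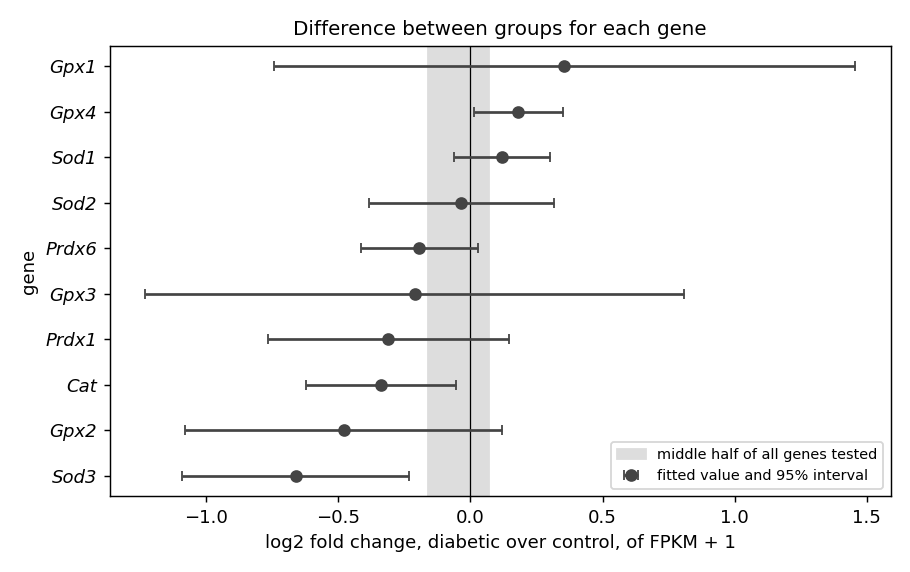
Fitted log2 fold change of FPKM + 1, diabetic over control (x axis), for each of the 10 genes (y axis), with its 95% interval from limma; the grey band spans the quartiles of all 12149 genes tested, -0.16 to 0.07. The intervals of Sod3, Cat and Gpx4 leave out 0, and Gpx1 and Gpx3 have the widest.

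Gpx4 (ENSMUSG00000075706.10, chromosome 10, 80047166 to 80056439, plus strand) was higher in diabetic epithelium. It measured 201, 199 and 192 FPKM in diabetic replicates 1, 2 and 3, against 170.0, 175 and 176 FPKM in control replicates 1, 2 and 3. The groups did not overlap, and the values within a group lay close together. Gpx4 averaged 197 ± 4.55 FPKM in diabetic and 174 ± 3.12 FPKM in control libraries (SD, n = 3 each), a log2 fold change of 0.18 (95% interval 0.01 to 0.35, limma unadjusted p = 0.0387, adjusted p = 0.405). In limma the unadjusted p of Gpx4 was 0.115 with a replicate block, 0.0725 without the intensity trend and between 0.0571 and 0.119 in 5 of 6 fits that left out 1 library, all but the one without diabetic replicate 3. Its spread within groups was a pooled SD of 0.030 on the log2 scale, smaller than that of all but 0.395% of genes, where the median gene had 0.150. GENCODE M21 lists 7 transcripts of Gpx4 and 1 processed pseudogene named for it, so reads shared with that copy are uncertain. Of the conjunctival markers, Krt4, Krt19 and Muc4 were higher without overlap in the same libraries, whereas Krt13, Krt7 and Krt8 overlapped. The part of these markers in the Gpx4 difference was not tested.

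Gpx1 (ENSMUSG00000063856.7, chromosome 9, 108338903 to 108340343, plus strand), the main cytosolic glutathione peroxidase, was set by a single library. It measured 320, 84.6 and 84.6 FPKM in diabetic replicates 1, 2 and 3, against 87.5, 108 and 116 FPKM in control replicates 1, 2 and 3. Diabetic replicates 2 and 3 were below every control library, whereas diabetic replicate 1 was far above all others. The log2 fold change of Gpx1 was 0.36 with all libraries (95% interval -0.74 to 1.46, limma adjusted p = 0.809) and -0.28 without diabetic replicate 1 (limma unadjusted p = 0.0769, adjusted p = 0.387). Of 938 genes with a mean of at least 50 FPKM, only Gpx1, Stfa2 and Gm45717 had a highest library above 2 times the next, and Gpx1 alone had it in diabetic replicate 1. These thresholds were chosen after the values were seen.

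Neutrophil markers were also highest in diabetic replicate 1. The 11 measured summed to 1002, 642 and 666 FPKM in diabetic replicates 1, 2 and 3, against 467, 362 and 686 FPKM in control replicates 1, 2 and 3. Of the 11, 9 were higher and 1 was lower in diabetic libraries on average, and Camp was at 0 in all libraries. Most of the sum came from S100a8 and from S100a9, which was at 728, 481 and 523 FPKM in diabetic replicates 1, 2 and 3. In this sum diabetic replicates 2 and 3 exceeded control replicates 1 and 2, with lower Gpx1 values. Retnlg, Csf3r, Cxcr2, Mmp8 and Mmp9, all at most 5.49 FPKM, were highest in diabetic replicate 1, as Gpx1 was. Itgam was nearly even over diabetic replicates 1, 2 and 3 (12.3, 11.4 and 12.1 FPKM), and Ltf was highest in control replicate 3. The part of neutrophils in the Gpx1 value was not tested. GENCODE M21 annotates 4 transcripts of Gpx1 and no gene that overlaps it.

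Gpx2 (ENSMUSG00000042808.8, chromosome 12, 76792333 to 76795554, minus strand) was at 1.96, 0.681 and 0.780 FPKM in diabetic replicates 1, 2 and 3, against 2.03, 1.18 and 2.64 FPKM in control replicates 1, 2 and 3. Diabetic replicate 1 lay within the control range and the other diabetic libraries below it. For Gpx2 the log2 fold change was -0.48 (95% interval -1.08 to 0.12, limma adjusted p = 0.525), whereas a fit that left out diabetic replicate 1 gave -0.74 (limma adjusted p of 0.202). Leaving out control replicate 2 gave -0.68, leaving out diabetic replicate 2 gave -0.33, and leaving out control replicate 3 gave -0.31. At a pseudocount of 0.1 in place of 1 the Gpx2 log2 fold change was -0.80, since the pseudocount is close to the values of so low a gene. Gpx2 overlaps Fntb on the opposite strand and has 1 processed pseudogene. Gpx3 (ENSMUSG00000018339.11, chromosome 11, 54902453 to 54910377, plus strand) was at 0.534, 1.32 and 3.12 FPKM in diabetic replicates 1, 2 and 3, against 2.09, 3.51 and 0.632 FPKM in control replicates 1, 2 and 3. The groups overlapped over nearly their whole range. For Gpx3 the fitted log2 fold change was -0.21 (95% interval -1.23 to 0.81, limma adjusted p = 0.887), and it was positive without diabetic replicate 1 (0.13) or without control replicate 2 (0.12).

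Both peroxiredoxins had lower means in diabetic libraries, and neither passed an unadjusted p under 0.05 in limma. Prdx1 (ENSMUSG00000028691.12, chromosome 4, 116685544 to 116700822, plus strand), a cytosolic peroxidase that uses thioredoxin, was at 234, 157 and 208 FPKM in diabetic replicates 1, 2 and 3, against 281, 188 and 276 FPKM in control replicates 1, 2 and 3. Control replicate 2 lay below diabetic replicates 1 and 3, so the groups overlapped. Prdx1 had a log2 fold change of -0.31 (95% interval -0.77 to 0.15, limma unadjusted p = 0.153, adjusted p = 0.582), a value that was -0.15 without diabetic replicate 2 and -0.50 without control replicate 2 (limma unadjusted p = 0.0237). With the replicate number as a block the unadjusted p of Prdx1 in limma was 0.0204 (adjusted p = 0.399). Prdx6 (ENSMUSG00000026701.15, chromosome 1, 161240112 to 161251219, minus strand), which reduces phospholipid peroxides and uses glutathione, was at 67.7, 74.3 and 64.0 FPKM in diabetic replicates 1, 2 and 3, against 83.0, 77.0 and 75.7 FPKM in control replicates 1, 2 and 3. The groups did not overlap, with diabetic replicate 2 close to control replicate 3. The log2 fold change of Prdx6 was -0.19 (95% interval -0.41 to 0.03, limma unadjusted p = 0.0773, adjusted p = 0.488). GENCODE M21 lists 1 processed pseudogene named for Prdx6.

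Across the members, the diabetic libraries differed among themselves. The median member lay -0.01, -0.29 and -0.27 from the control mean on the log2 scale in diabetic replicates 1, 2 and 3, where the median of all genes tested lay at 0.01, -0.02 and -0.13. Of the 10 members, 5, 8 and 7 were below the control mean in diabetic replicates 1, 2 and 3. Summed over the 10 genes, the level was 1120.5, 808 and 821 FPKM in diabetic replicates 1, 2 and 3, against 922, 840 and 955 FPKM in control replicates 1, 2 and 3. Diabetic replicate 1, which holds the high Gpx1 value, was above all control libraries and the other diabetic libraries were below them.

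Many antioxidant genes are targets of NRF2, a transcription factor that binds the antioxidant response element. Its core TGACNNNGC was searched on both strands of RefSeq promoter windows (GRCm38.p6, 250 bases before to 50 after a start). Of 8 members with a window, 2 held the core, Prdx1 and Sod1, where 14.0% of 27025 genes did. Both matches were on the strand opposite to the gene, so the capitals, written along the gene's strand, show the reverse complement of the core with 10 bases to each side.
Prdx1: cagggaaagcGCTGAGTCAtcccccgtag
Sod1: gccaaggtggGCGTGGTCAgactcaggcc
The capitals begin 133 bases before the start of transcription in Prdx1 and 56 bases before it in Sod1, so that these stretches lie on chromosome 4 at 116685456 to 116685484 and on chromosome 16 at 90220696 to 90220724. Prdx1 was lower and Sod1 higher on average in diabetic epithelium, each with overlapping groups as given above. A match of letters is a description and does not show that a factor binds there.

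Of 70 further genes of the same pathways, 60 were in the table and 54 passed the expression filter. None of them passed the adjusted threshold in limma, 3 were higher and 4 lower at an unadjusted p under 0.05 (4.61% and 6.91% of all genes were), and their median log2 fold change was -0.04. Prdx5, a peroxiredoxin found in mitochondria, peroxisomes and cytosol, had the smallest p. It measured 300, 314 and 318 FPKM in diabetic replicates 1, 2 and 3, against 243, 257 and 249 FPKM in control replicates 1, 2 and 3. Every diabetic library exceeded every control library. Prdx5 had a log2 fold change of 0.32 (95% interval 0.15 to 0.48, limma unadjusted p = 0.00251, adjusted p = 0.188). The part of the conjunctival markers in the Prdx5 difference was not tested.

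Among the other peroxidases and peroxiredoxins, of which 7 were tested, Prdx4 of the endoplasmic reticulum had a log2 fold change of -0.30 (limma adjusted p = 0.405). In the thioredoxin system (11 genes, median -0.02), the glutaredoxin gene Glrx3 had one of -0.34 (adjusted p = 0.326), Glrx2 one of -0.22 (adjusted p = 0.561) and Txnip, which inhibits thioredoxin, one of 0.52 (adjusted p = 0.580). Of 9 genes for the supply of glutathione and NADPH 8 were lower, with a median of -0.12. Me1, which encodes malic enzyme and yields NADPH, had a log2 fold change of -0.29 (adjusted p = 0.425), the glutathione synthetase gene Gss -0.21 (adjusted p = 0.511) and Gclc -0.16 (adjusted p = 0.648). Genes that supply metals to the dismutases (8 genes, median -0.01) had 0 members at an unadjusted p under 0.05 in limma, and the smallest p was that of the metal transporter gene Slc39a14 (log2 fold change 0.10, adjusted p = 0.708), before Atox1 (-0.09, adjusted p = 0.735) and Cox17 (-0.14, adjusted p = 0.793). Genes of selenoprotein synthesis (9 genes, median 0.00) likewise had 0, with Sepsecs at -0.30 (adjusted p = 0.488), Sephs2 at -0.32 (adjusted p = 0.488) and Lrp8 at 0.15 (adjusted p = 0.660). Slc39a14 and Lrp8 passed the expression filter only through the diabetic group, where they were higher (control means 0.397 and 0.436 FPKM). Their values and the medians of their lists are therefore not free of the filter.

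Genes that produce superoxide and hydrogen peroxide, the NADPH oxidases and their partners, were higher in 6 of 10, with a median log2 fold change of 0.31. Ncf1 and Ncf4 passed the expression filter only through the diabetic group, where they were higher (control means 0.352 and 0.499 FPKM). The count and the median are therefore not free of the filter. Without overlap 1 was higher, Ncf1, and 1 was lower, Duox1, against 6.68% of all genes higher and 10.9% lower. Ncf1, a subunit of the phagocyte oxidase, was at 1.56, 0.868 and 0.592 FPKM in diabetic replicates 1, 2 and 3, against 0.328, 0.201 and 0.527 FPKM in control replicates 1, 2 and 3. The groups did not overlap, and diabetic replicate 1 was the highest, as it was for the neutrophil markers. The log2 fold change of Ncf1 was 0.55 (limma unadjusted p = 0.0190, adjusted p = 0.338). Duox1, an epithelial oxidase that yields hydrogen peroxide, was at 0.918, 0.805 and 0.808 FPKM in diabetic replicates 1, 2 and 3, against 1.06, 1.21 and 0.925 FPKM in control replicates 1, 2 and 3 (log2 fold change -0.16, limma adjusted p = 0.567). It is named after its values were seen. Duoxa2, the maturation factor of an epithelial oxidase, had one of 0.45 (adjusted p = 0.397) and Cyba one of 0.38 (adjusted p = 0.498). Leukocytes express the phagocyte oxidase, and their part in these values was not tested.

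**Figure D4:**
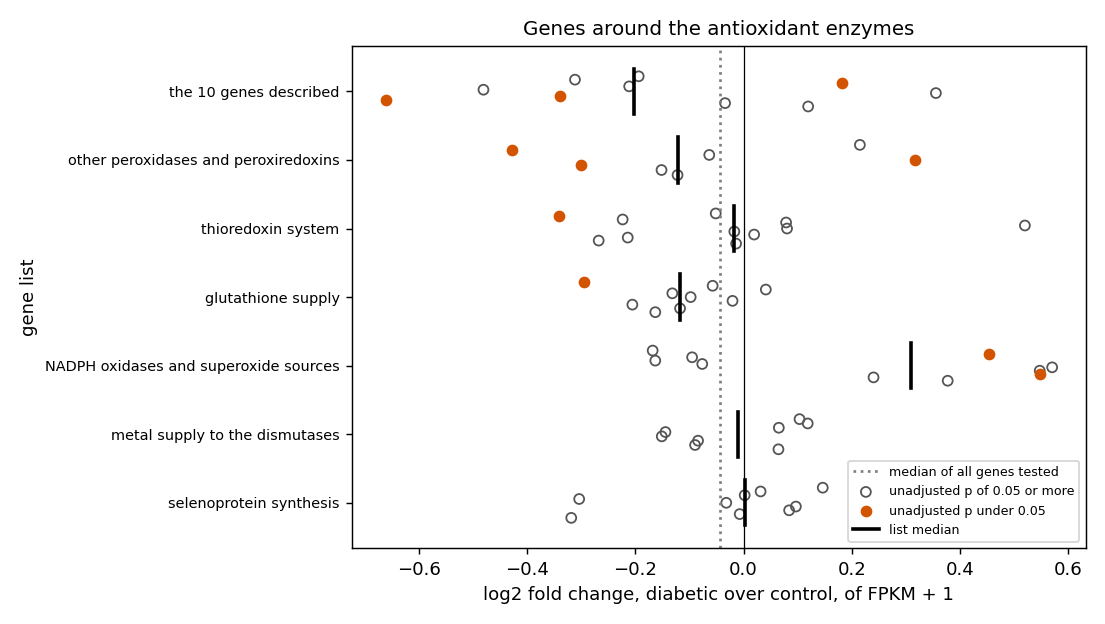
Log2 fold change of FPKM + 1, diabetic over control (x axis), of each tested gene by list (y axis); filled points had an unadjusted p under 0.05 in limma, black bars are list medians and the dotted line is the median of all genes tested, -0.04. The median of the 10 genes described lies at -0.20 and that of the oxidase list at 0.31, and no gene in the plot passed the adjusted threshold. In the oxidase list, Ncf1 and Ncf4 passed the expression filter only through the diabetic group. Slc39a14 of the metal supply list and Lrp8 of the selenoprotein list did so too.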

How the data were processed

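Libraries were prepared by the authors with a stranded kit and sequenced on an Illumina NovaSeq. The submitters' processing notes name FastQC, cutadapt, the aligner HISAT2, the GRCm38 genome and StringTie, and their versions are not given in the sources used here. The deposited values are FPKM as computed by the authors for protein-coding genes. Columns were matched to samples by title. Genes with a mean of at least 0.5 FPKM in 1 or both groups were kept (12149 kept, 2819 removed). For 21 rows that repeat a symbol, the row with the highest mean carried it. Group differences of log2(FPKM + 1) were fitted in limma 3.58.1 under R 4.3.3 (moderated variances with an intensity trend; two-sided; no block), where the study used ballgown. With 3 libraries per group an exact permutation p cannot be below 0.1, so none is given. FPKM do not show how reads shared between similar genes were assigned. Fold changes on this scale understate those of low genes. The model was checked on simulated data, with a pass mark set on changes larger than those of any member. That check does not show how often changes of the members' size would be found.

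The members, the gene lists and the motif were chosen with earlier results of these data known. Named were all members, the 3 genes with the smallest p of each further list and the 5 genes most like the member with the smallest p, of which 1 is not reported here. Overlapping genes, pseudogenes and selenocysteine codons came from GENCODE M21. Sod1 and Sod2 have other ends there than in the file, and the file's are given. Alternatives were other pseudocounts (0.1 and 0.5), filters, scalings and variance models, a replicate block and leaving out each library.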

Additional observations from a re-analysis of the deposited data

How the results depend on the processing

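Of 180 values of the 10 members under 18 alternative settings, 171 kept their direction and 0 passed the adjusted threshold (smallest adjusted p 0.104, Sod3 with library weights). The 9 that changed sign belonged to Sod2, Gpx1 and Gpx3. As log2 fold changes, Sod2 was at 0.0033 with TPM scaling, 0.0212 with quantile normalization, 0.0200 with median-of-ratios scaling, 0.0069 with library weights, 0.0815 without diabetic replicate 3 and 0.0445 without control replicate 3. Over all fits without 1 library, the lowest value of Sod2 was -0.1749. Gpx1 was at -0.2798 without diabetic replicate 1, and its other such fits reached 0.673. Gpx3 was at 0.1253 without diabetic replicate 1 and 0.1243 without control replicate 2, with a lowest value of -0.6085 over such fits. The cause was not tested. The median log2 fold change of the members stayed between -0.25 and -0.15. The Sod3 log2 fold change stayed between -0.81 and -0.45. Its adjusted p was between 0.104 and 0.603.

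Members past the thresholds of the study numbered 0 with library weights, where Sod3 was at -0.57, and 0 (without diabetic replicate 3) to 2 (Sod3 and Gpx2, without diabetic replicate 1 or control replicate 2) when 1 library was left out. Of all genes, 8 passed the adjusted threshold. This number was 1 without a filter, 5 with quantile normalization, 3 without a trend, 129 with library weights, 0 in the ordinary linear model (1140 genes at an unadjusted p under 0.05), and 1 to 66 when 1 library was left out. The thresholds of the study were passed by 302 genes, by 584 at a pseudocount of 0.1, by 497 with TPM scaling, by 186 in the ordinary linear model and by 258 to 469 when 1 library was left out. With the replicate number as a block 3 genes and 0 members passed the adjusted threshold (Sod3 adjusted p = 0.284). Same-numbered libraries correlated at -0.20, 0.06 and -0.09 in their deviations from the group means. With 3 libraries per group these values cannot settle whether the numbers pair libraries, and the main fit took none as paired. The study describes its screening as done on paired samples without naming the pairs. Median-of-ratios scaling gave 182 higher and 135 lower genes at the thresholds of the study, in place of 149 and 153.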
